A study of Caenorhabditis elegans with 8 samples.

Results

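The 10 collagen genes named for body shape outside the furrow group were sqt-3, dpy-17, dpy-14, dpy-4, dpy-5, dpy-13, sqt-1, rol-6, bli-1 and bli-2. They are collagen genes whose mutants are dumpy (short and fat), squat, rolling or blistered, and they were taken by name, leaving aside the group needed for the furrows of the cuticle (dpy-2, dpy-3, dpy-7, dpy-8, dpy-9 and dpy-10). All 10 were present among the 20389 genes of the count table. Messenger RNA had been sequenced from whole Caenorhabditis elegans of strain VC199, which carries the deletion allele ok434 of sir-2.1, a gene for a histone deacetylase. Larvae (4 libraries) had spent 24 hours on NGM plates after hatching, and embryos (4 libraries) of mixed age had been released with bleach from parents grown without synchrony. By their labels the larvae were at L3, and the methods give a window of L2 and L3. Both stages carry the same deletion and no wild-type library is labelled, so the comparison open to these libraries was larvae against embryos. The titles of all embryo libraries start with the code SEA and those of all larvae libraries with MK. The labels do not say what these codes mean, and stage and code cannot be told apart. Each library is a pool of whole animals.

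The cuticle of C. elegans is an extracellular coat made largely of collagens that the epidermis secretes, and a new cuticle is built before hatching and again before each molt. Collagen chains are hydroxylated and folded into triple helices in the secretory pathway, trimmed by proteases outside the cell and joined by tyrosine cross-links. Collagen genes are known to be transcribed in waves within each molting cycle.

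The 10 genes lie on 5 chromosomes, with positions given here in the WS220 build. sqt-3 (F23H12.4) is on chromosome V at 12352975 to 12354295, and dpy-17 (F54D8.1) is on III at 5107289 to 5108550. Chromosome I holds dpy-14 (H27M09.4, 6843594 to 6845135) and dpy-5 (F27C1.8, 5432161 to 5433059). Chromosome IV holds dpy-4 (Y41E3.2, 14985511 to 14986750) and dpy-13 (F30B5.1, 4235607 to 4236699). On chromosome II are sqt-1 (B0491.2, 11336627 to 11337771), rol-6 (T01B7.7, 8733000 to 8734264), bli-1 (C09G5.6, 10708901 to 10712066) and bli-2 (F59E12.12, 5651392 to 5652408). In the later WBcel235 annotation 9 of the genes have short coding regions of 284 to 352 codons in 1 to 4 exons, with dpy-5 in a single exon. bli-1 stands apart with 948 codons in 5 exons.

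The libraries held 13687095 to 22419153 gene counts in larvae and 16300947 to 31292935 in embryos. The biological coefficient of variation was 30.8% among larvae and 21.9% among embryos. sir-2.1 itself had 570 to 1036 counts in larvae and 1225 to 2424 in embryos, and counts summed over the gene do not check a deletion within it. In larvae 3 body muscle genes (myo-3, unc-54 and unc-15) were higher, and the maternal transcripts pie-1, mex-5 and nos-2 were lower. The germline genes listed did not all fall, since glh-1 was higher in larvae and pgl-1 was not called in either direction. The muscle regulator hlh-1 had 0 counts in all 8 libraries, yet the TPM table lists it at 5.99 to 11.7 TPM in larvae and 65.7 to 78.1 TPM in embryos, and this disagreement of the tables was not resolved. Values below are in the order of replicates 1 to 4 within each stage, levels are in TPM (transcripts scaled by gene length and library total), and fold changes are of larvae over embryos from the counts with edgeR's quasi-likelihood test, with p-values adjusted over all 13571 genes tested.

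By the direction of the stage difference, the collagens tested split into an embryonic set (lower in larvae) and a larval set (higher in larvae). The sets do not sort all 10 by level. sqt-3, of the embryonic set, also had the highest mean level of the 10 in larvae (1171 TPM), and bli-1 and bli-2 belong to neither set. sqt-3, dpy-17 and dpy-14 were lower in larvae, whereas dpy-4, dpy-5, dpy-13, sqt-1 and rol-6 were higher in larvae by folds of 236 to 711. Of the 10 genes, 8 passed the filter on low counts and all 8 were called at an adjusted p of 0.05 (edgeR), 5 higher and 3 lower in larvae. The background was high, since 74.1% of all genes tested were called, 36.9% higher and 37.2% lower in larvae. In CPM (counts scaled by library total and by each library's TMM factor from edgeR), larvae and embryos lay fully apart for each of the 8. The same was true of 69.0% of all genes tested (33.3% with larvae above and 35.6% with larvae below). In bulk libraries, fewer epidermal cells and less RNA per cell cannot be told apart. For these calls the scaling mattered for size but not for direction. Scaling by library totals alone shifted the median of all genes down by 0.49 (log2) and left the 5 higher and 3 lower calls as they were.

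**Figure D1:**
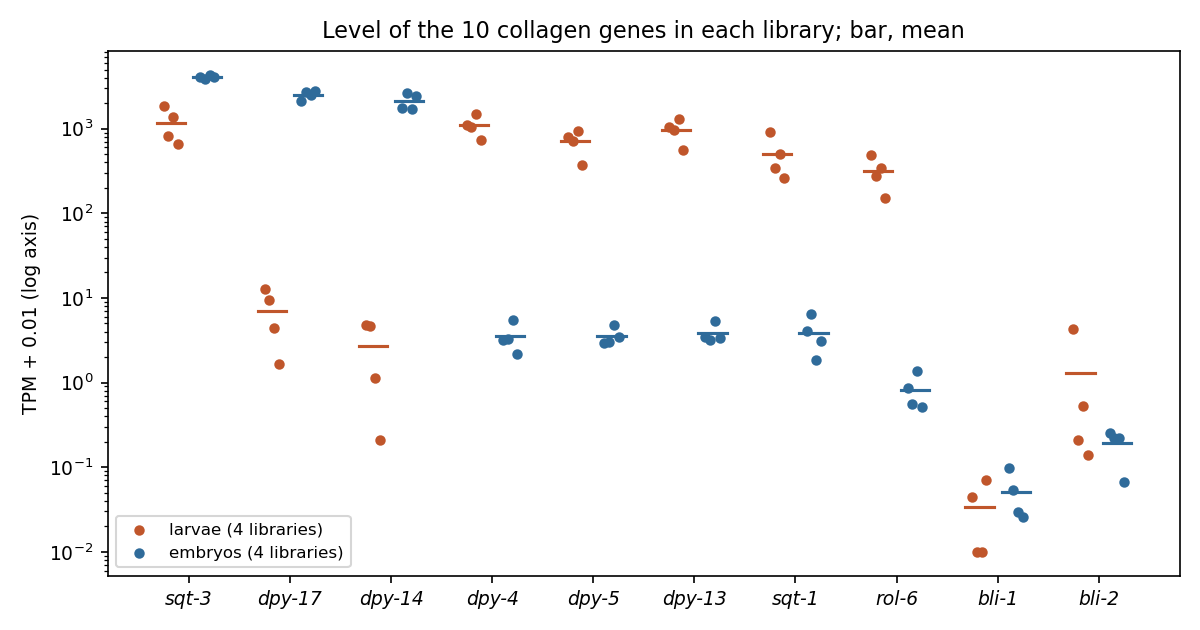
Level of each of the 10 collagen genes in every library, in TPM on a log scale, with larvae and embryos side by side and 1 point per library. sqt-3, dpy-17 and dpy-14 sit higher in embryos, dpy-4, dpy-5, dpy-13, sqt-1 and rol-6 sit higher in larvae, and bli-1 and bli-2 lie near the bottom in both stages.

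sqt-3 encodes a cuticle collagen that is required in the embryo, where its loss can be lethal, and later for body shape. Its level was 1846, 823, 1357 and 657 TPM in larvae, against 4105, 3867, 4358 and 4136 TPM in embryos. All 4 larvae libraries lay below all 4 embryo libraries, and sqt-3 was still abundant in larvae. The log2 fold change was -0.96 (SE 0.29, adjusted p = 0.0108 by edgeR), and leaving out each library in turn gave -1.26 to -0.77. Scaling by library totals gave -1.44, and the test on log2(TPM + 1) gave -1.93. Tested against a fold of 2 instead of no change (edgeR's glmTreat), the difference was not called (adjusted p = 0.513). In embryos sqt-3 ranked 13th of all genes by mean TPM and 1st of 178 collagen genes, and in larvae it ranked 155th of all genes and 17th of the collagens.

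dpy-17 encodes a collagen that works with SQT-3 by genetic tests. It had 12.6, 9.34, 4.43 and 1.63 TPM in larvae, against 2133, 2717, 2502 and 2788 TPM in embryos. Those larval levels rest on 225, 264, 106 and 42 counts, against 40051 to 68279 counts in embryos. It was lower in larvae by a log2 fold change of -7.69 (SE 0.56, adjusted p = 2.60e-07 by edgeR), and in embryos it was the second collagen by mean level, ranking 38th of all genes.

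dpy-14 encodes a cuticle collagen whose mutants are dumpy, and among the 10 it had the largest fall. It had 4.83, 4.64, 1.11 and 0.199 TPM in larvae, against 1770, 2616, 1709 and 2422 TPM in embryos. The larval counts were 84, 128, 26 and 5, so the 2 lower libraries carry wide counting error. The log2 fold change was -8.83 (SE 0.76, adjusted p = 8.68e-07 by edgeR), the lowest of the 126 collagen genes tested. dpy-17 ranked 5th lowest of those 126, and sqt-3 12th, which made it the last of the 12 collagens that were lower in larvae.

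The larval set was led by dpy-4, dpy-13 and dpy-5, cuticle collagens whose mutants are dumpy. dpy-4 had 1121, 1042, 1508 and 733 TPM in larvae, against 3.17, 3.29, 5.45 and 2.14 TPM in embryos. Its embryonic levels came from 94, 65, 81 and 39 counts. The stages were far apart, and dpy-4 ranked 164th of all genes in larvae, and its log2 fold change was 9.16 (SE 0.40, adjusted p = 1.32e-08 by edgeR).

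dpy-13 had 1043, 963, 1316 and 561 TPM in larvae, against 3.46, 3.16, 5.36 and 3.31 TPM in embryos. Its log2 fold change was 8.84 (SE 0.37, adjusted p = 1.08e-08 by edgeR). dpy-5 had 789, 722, 947 and 377 TPM in larvae, against 2.96, 3.03, 4.76 and 3.41 TPM in embryos. Both genes were highest in larvae replicate 3 and lowest in larvae replicate 4, with no overlap between stages. For dpy-5 the log2 fold change was 8.49 (SE 0.37, adjusted p = 1.31e-08 by edgeR).

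sqt-1 and rol-6 encode collagens that interact genetically, and a dominant rol-6 allele that makes worms roll is widely used as a marker of transgenesis. sqt-1 had 914, 346, 499 and 264 TPM in larvae, against 4.06, 6.53, 1.83 and 3.09 TPM in embryos. Its log2 fold change was 7.88 (SE 0.53, adjusted p = 1.47e-07 by edgeR). rol-6 had 491.0, 273, 340 and 150 TPM in larvae, against 0.842, 0.547, 1.34 and 0.502 TPM in embryos. The embryonic rol-6 counts were 30, 13, 24 and 11, the lowest of the 8 genes tested in that stage. Its log2 fold change was the largest of the 10, at 9.47 (SE 0.49, adjusted p = 2.47e-08 by edgeR), and ranked 3rd among the 126 collagens tested. dpy-4 ranked 7th, dpy-13 10th, dpy-5 14th and sqt-1 24th in the same order. As ratios of mean TPM, which were scaled otherwise, the 5 rises came to 388-fold for rol-6, 313-fold for dpy-4, 254-fold for dpy-13, 200-fold for dpy-5 and 131-fold for sqt-1. From the counts they were 711-fold, 571-fold, 458-fold, 359-fold and 236-fold in the same order of genes.

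**Figure D2:**
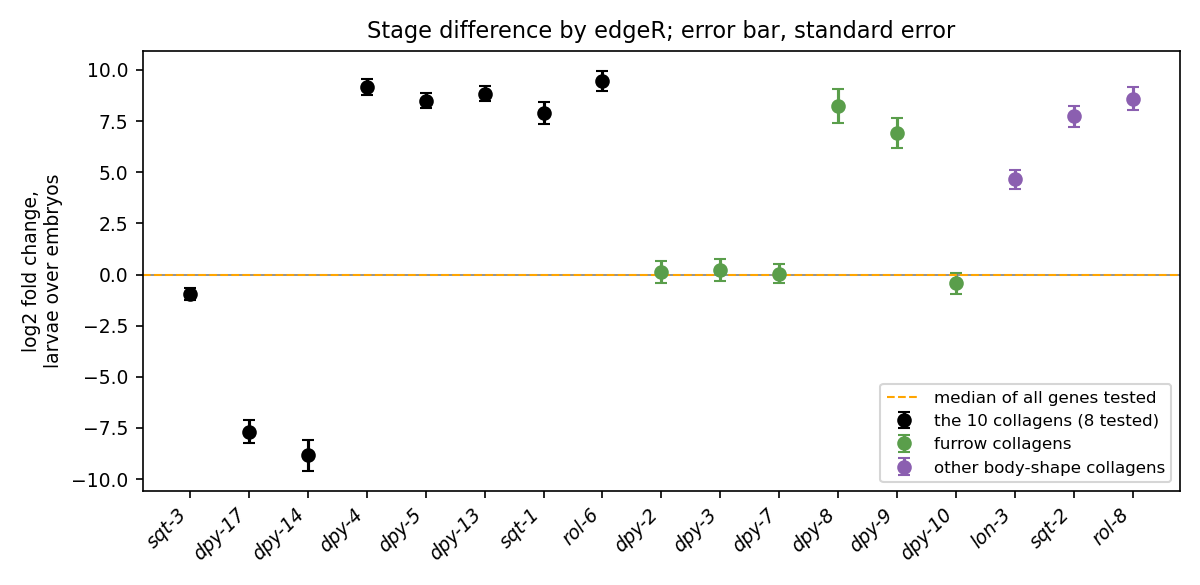
Log2 fold change of larvae over embryos by edgeR for each collagen gene tested, with the standard error as a bar and the median of all genes tested (-0.03) as a dashed line. Of the 10 collagens, 3 lie below the line, with sqt-3 (-0.96) closest to it, and 5 lie between 7.88 and 9.47, whereas 4 of the 6 furrow collagens lie within their standard errors of the line.

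bli-1 and bli-2 encode collagens of the struts that join the layers of the adult cuticle, and their mutants form blisters. Both failed the filter on low counts and entered no main test. bli-1 had 2, 0, 0 and 5 counts in larvae, against 9, 3, 1 and 1 counts in embryos. A count of 0 allows up to 3 counts, which by library total alone is 0.134 CPM in larvae replicate 2 and 0.168 in larvae replicate 3. bli-2 had 68, 5, 11 and 3 counts in larvae, against 7, 4, 3 and 1 counts in embryos. In TPM it stood at 4.27, 0.200, 0.515 and 0.130 in larvae, against 0.246, 0.211, 0.210 and 0.0572 in embryos. The stages overlapped for both genes, and larvae replicate 1 alone held a bli-2 level above 1 TPM. When the filter was dropped, bli-2 was called higher in larvae (log2 fold change 3.48, SE 0.97, adjusted p = 0.00580 by edgeR). That call ended without larvae replicate 1 (log2 fold change 1.39, SE 0.67, adjusted p = 0.0811 by edgeR), a fit added after the values were seen. bli-1 was not called without the filter (log2 fold change -0.13, adjusted p = 0.910 by edgeR). Of the adult genes col-19, col-7, col-62, vit-2 and vit-6, none of which was called, 3 could be tested and were likewise highest of the larvae in replicate 1. The 5 summed to 12.6 TPM there and 1.67 to 4.64 TPM in the other larvae libraries against 0.384 to 43.2 TPM in embryos, with col-62 at 0 counts in embryos. Their part in the bli-2 value was not tested.

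Summed over the 10 genes, the level was 6227, 4183, 5972 and 2745 TPM in larvae, against 8023, 9218, 8588 and 9358 TPM in embryos. In TPM every larval sum was below every embryonic sum, although 5 of the genes were higher in larvae. That order depends on the scaling. With the TMM factors used in the tests (0.80 to 0.89 in larvae, 1.10 to 1.31 in embryos), the summed counts did not keep it in every library. In embryos nearly the whole sum came from sqt-3 (47.0%), dpy-17 (28.7%) and dpy-14 (24.1%). The larval sum was spread over 6 genes, with mean shares of 24.0% for sqt-3, 23.7% for dpy-4, 20.6% for dpy-13, 14.9% for dpy-5, 10.2% for sqt-1 and 6.39% for rol-6. sqt-3 was the gene that made a large share in both stages. Of the TPM of all 178 collagen genes, the 10 made 18.2%, 5.74%, 9.13% and 3.40% in larvae, against 46.1%, 57.5%, 54% and 55.6% in embryos. The numbered col- genes, the bulk of the family, summed to 23998 to 76838 TPM in larvae and 5698 to 8471 TPM in embryos.

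**Figure D3:**
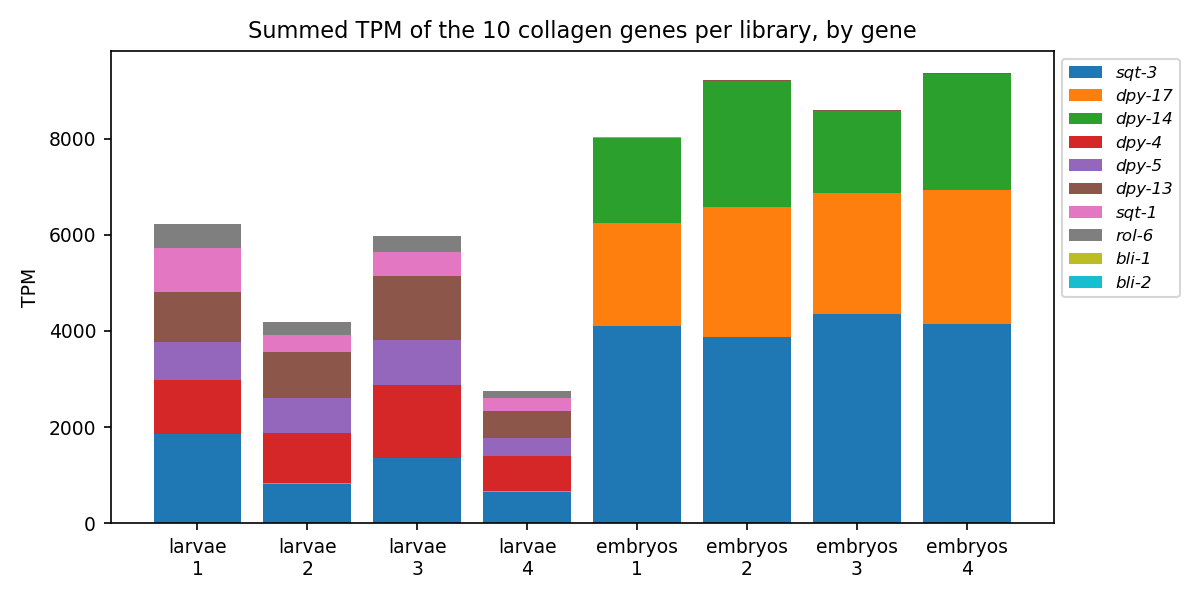
Summed TPM of the 10 collagen genes in each library, stacked by gene, with larvae on the left and embryos on the right. The 4 larvae bars reach 2745 to 6227 TPM and are built from 6 genes, and the 4 embryo bars reach 8023 to 9358 TPM and are built almost wholly from sqt-3, dpy-17 and dpy-14.

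The order of levels also differed by stage. In larvae the mean levels ran from sqt-3 (1171 TPM) through dpy-4 (1101), dpy-13 (971), dpy-5 (709), sqt-1 (506) and rol-6 (313) down to dpy-17 (7.01), dpy-14 (2.70), bli-2 (1.28) and bli-1 (0.0237). sqt-3 and dpy-4 were not separated, since sqt-3 exceeded dpy-4 in 1 of 4 larvae libraries. dpy-4 exceeded dpy-13, and dpy-13 exceeded dpy-5, in 4 of 4 libraries, although the ranges of neighbours overlapped between libraries. Between rol-6 and dpy-17 the level dropped 44.7-fold with no overlap. In embryos sqt-3 (4117 TPM), dpy-17 (2535) and dpy-14 (2129) were followed after a gap of 549-fold by sqt-1 (3.88), dpy-13 (3.82), dpy-5 (3.54) and dpy-4 (3.51), whose ranges overlapped. rol-6 (0.808), bli-2 (0.181) and bli-1 (0.0415) lay below those.

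The larvae libraries were more spread than the embryo libraries for 7 of the 8 genes tested, a share that was not counted over all genes. Larvae were also the more spread stage over all genes tested, by a biological coefficient of variation of 30.8% against 21.9%. The standard deviation (SD) of log2 CPM was 1.94 among larvae and 0.35 among embryos for dpy-14. It was 1.23 among larvae and 0.25 among embryos for dpy-17. Only 0.309% of all genes tested had a larger spread among larvae than dpy-14, and 2.56% had a larger spread than dpy-17. Larvae replicate 4 set much of this, and without it the SD among larvae was 1.09 for dpy-14 and 0.71 for dpy-17. These are also the genes with the fewest larval counts of the 8. For sqt-3 the SD was 0.69 among larvae and 0.13 among embryos, at levels where counting error is small. sqt-1 (0.78 among larvae and 0.71 among embryos) and rol-6 (0.70 and 0.59) varied in both stages. dpy-5 (0.57 and 0.36) and dpy-13 (0.52 and 0.36) varied less, and dpy-4 (0.44 among larvae and 0.56 among embryos) was the exception to the order. The median SD of the 8 genes was 0.70 among larvae and 0.36 among embryos, beside 0.31 and 0.28 over all genes tested. A wide spread among larvae was not particular to the 8. The larval median SD was 1.36 for the furrow collagens and 0.92 for the numbered col- genes. It was 0.91 for the other body-shape collagens (lon-3, sqt-2 and rol-8) and 0.77 for the molting genes. No test was made of these spreads.

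**Figure D4:**
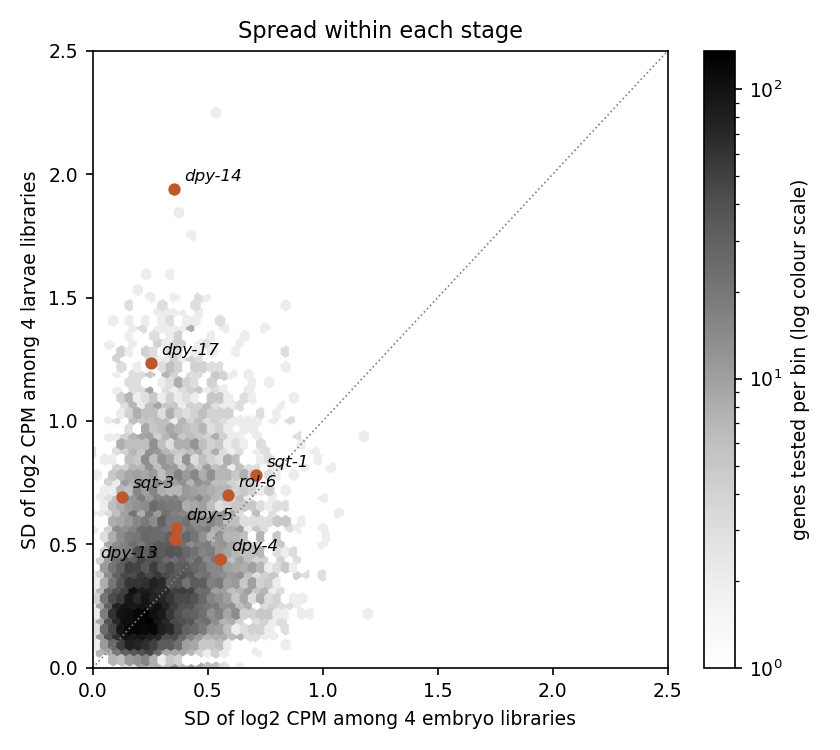
Spread of each gene within larvae (y axis) and within embryos (x axis), as the SD of log2 CPM over 4 libraries, with grey bins counting all genes tested and points marking the 8 collagens (18 genes with an SD above 2.5 lie outside the axes). dpy-14 (1.94) and dpy-17 (1.23) lie far above the dotted line of equal spread, and dpy-4 lies below it.

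The larvae libraries differed in a way that the 8 genes largely shared. All 8 were lowest in larvae replicate 4, where 21.6% of all genes tested had their lowest larval value. sqt-3, dpy-17, dpy-14, sqt-1 and rol-6 were highest in larvae replicate 1, and dpy-4, dpy-5 and dpy-13 in larvae replicate 3. From the mean of the 4 larvae libraries, dpy-14 departed by 1.57, 1.41, -0.40 and -2.58 on the log2 scale, and dpy-17 by 1.20, 0.65, -0.21 and -1.63. These 2 genes therefore stayed above their mean in larvae replicate 2, where the other 6 lay below theirs. sqt-1 departed by 1.0, -0.52, 0.22 and -0.71, which follows sqt-3 (0.76, -0.53, 0.41 and -0.65). dpy-5 departed by 0.23, -0.03, 0.57 and -0.77, and dpy-13 by 0.14, -0.06, 0.59 and -0.67.

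Other collagens shared the low in larvae replicate 4. Of the 3 other body-shape collagens tested, sqt-2 and rol-8 were lowest there in CPM and lon-3 in larvae replicate 2, and all 3 were highest in larvae replicate 1. Among the numbered col- genes 25 (22.9%) were lowest in larvae replicate 4, beside 21.6% of all genes tested. The furrow collagens had another profile over the same libraries. All 6 were highest in larvae replicate 1 and lowest in larvae replicate 2, by departures of 1.69 to 2.14 and of -1.52 to -1.17. Of the 18 molting genes, 14 were highest in larvae replicate 1 (26.5% of all genes tested) and 14 lowest in larvae replicate 2 (20.01% of all genes tested). nhr-25 ran the other way, at 9.59, 19.5, 18.7 and 12.8 TPM in larvae. Of the 109 numbered col- genes tested, 60 (55.0%) were lowest in larvae replicate 1, beside 33.8% of all genes tested. Larvae replicate 1 was also the library with the fewest gene counts. The 6 epidermal genes matched (elt-1, elt-3, lin-26, che-14, wrt-2 and wrt-10) summed to 643 TPM in larvae replicate 1 and to 186, 220 and 228 TPM in larvae replicates 2, 3 and 4, none of them at 0 counts. wrt-10 (366 TPM in replicate 1 and 41.3 to 94.4 TPM in the others) and wrt-2 (161 TPM and 32.6 to 46.7 TPM) carried most of that excess, whereas elt-3 was lowest in replicate 1 (41.0 TPM and 53.3 to 59.6 TPM) and elt-1 stood at 12.7 TPM there, within the 11.4 to 18.01 TPM of the others. Whether the stage of the pooled larvae or the share of epidermis had a part in these profiles was not tested. Without larvae replicate 1 or replicate 4, all 8 collagens were still called in the same direction.

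**Figure D5:**
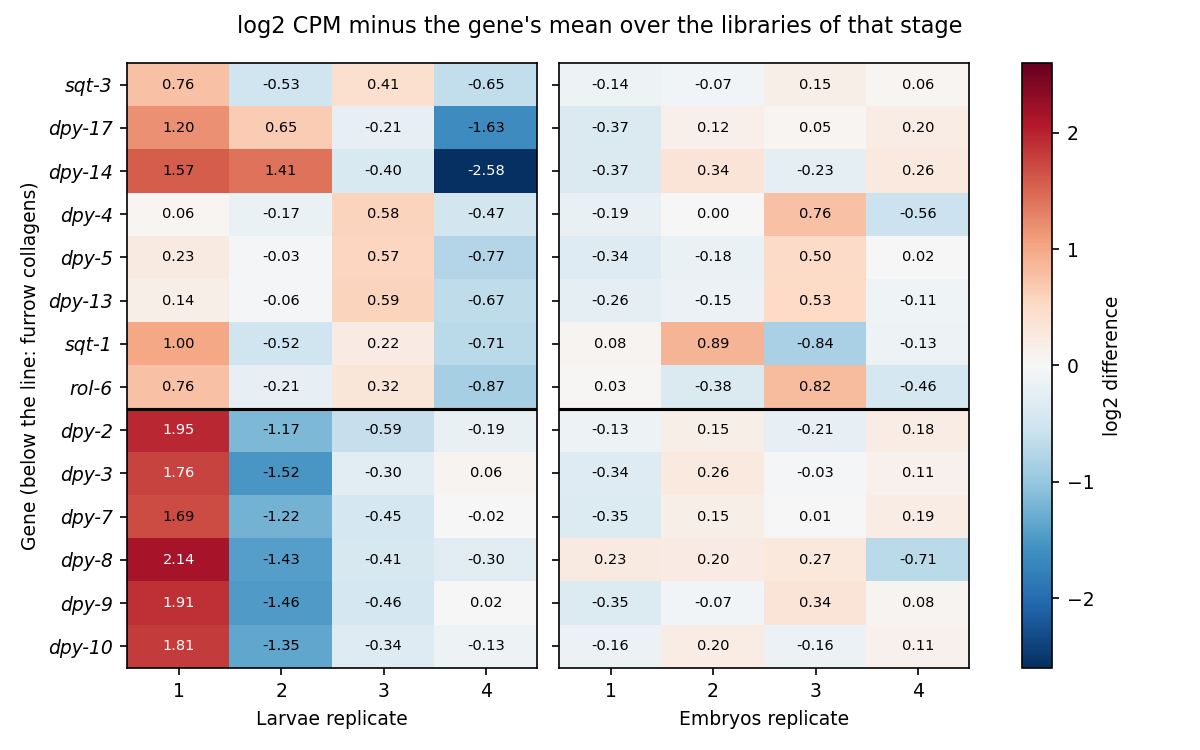
Log2 CPM minus the gene's mean over the 4 libraries of that stage, for the 8 collagens tested (above the line) and the 6 furrow collagens (below it), with larvae on the left and embryos on the right. The 8 collagens are lowest in larvae replicate 4, whereas the furrow collagens are highest in larvae replicate 1 and lowest in larvae replicate 2.

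Among the 28 pairs of the 8 genes, the log2 ratio of dpy-5 to dpy-13 varied least over the larvae libraries (SD 0.076), followed by dpy-4 to dpy-13 (SD 0.14) and sqt-3 to sqt-1 (SD 0.18). The widest was dpy-14 to dpy-4 (SD 1.84), and dpy-17 to dpy-14, both of the embryonic set, had an SD of 0.74. These ratios share the 4 libraries and are a description.

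Pairs joined by genetics or function were compared between stages as log2 ratios of TPM (with 0.1 added) by a two-sided exact permutation test over all 70 regroupings, in which the smallest possible p is 0.0286. dpy-17 stood at -7.61 ± 0.97 relative to sqt-3 in larvae and at -0.71 ± 0.20 in embryos (SD, n = 4 each), a difference of -6.90 (exact p = 0.0286, adjusted over 4 pairs 0.0571). dpy-13 stood at 0.47 ± 0.08 relative to dpy-5 in larvae and at 0.10 ± 0.12 in embryos (SD, n = 4 each), a difference of 0.37 (exact p = 0.0286, adjusted 0.0571). In both pairs the stages did not overlap, and none of the 4 pairs passed 0.05 after adjustment. sqt-1 over rol-6 was 0.65 ± 0.25 in larvae and 2.08 ± 1.23 in embryos (SD, n = 4 each; exact p = 0.114, adjusted 0.152), and the difference of -1.43 became -0.71 with 1 TPM added in place of 0.1. bli-2 over bli-1 was 2.44 ± 1.92 in larvae and 0.95 ± 0.40 in embryos (SD, n = 4 each; exact p = 0.171, adjusted 0.171), and rests on few counts. Its difference of 1.48 became 0.62 without larvae replicate 1, 0.65 with 1 TPM added and 2.72 on counts.

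Other genes of cuticle building were set beside the 10. The other body-shape collagens lon-3, sqt-2 and rol-8 were all higher in larvae, with log2 fold changes of 4.64, 7.73 and 8.58, and bli-6 was not tested for low counts. Among the furrow collagens dpy-8 (8.23) and dpy-9 (6.92) were higher in larvae, dpy-8 within the range of the larval set (7.88 to 9.47) and dpy-9 below it. The other 4 furrow collagens were not called (-0.42 to 0.22), and the median of the 6 was 0.17, beside -0.03 for all genes. The 8 genes tested here had a median of 8.18. That value lies in the range of the larval set and does not describe sqt-3, dpy-17 and dpy-14, which were lower in larvae. The furrow median likewise does not describe dpy-8 and dpy-9. Of the 109 numbered col- genes tested, 75 were higher and 9 lower in larvae, with a median of 2.87. col-165 (-8.64) and col-74 (-8.48) had the lowest values of that family, close to dpy-14.

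A further list held 12 genes for the modification, trimming or cross-linking of collagen. Of these, 11 were tested, 5 were higher and none was lower in larvae, and 6 were not called, with a median of 0.40. With library totals as the only scaling, 3 were higher and 2 lower. The peroxidase gene mlt-7 (log2 fold change 3.31) and the Kunitz-type inhibitor gene bli-5 (1.99) had the largest rises. dpy-31, named after its value was seen, encodes an astacin protease that processes SQT-3, and it was higher in larvae (1.8), where sqt-3 itself was lower. The prolyl 4-hydroxylase genes dpy-18 (-0.02) and phy-2 (-0.63) and the disulfide isomerase gene pdi-2 (0.13) were not called and were likewise named after their values were seen.

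Of the 18 molting genes 7 were higher, 1 was lower and 10 were not called in larvae, with a median of 0.41, and library totals alone gave 7 higher and 2 lower. The astacin protease gene nas-37 (7.58) and the heterochronic transcription factor gene lin-29 (2.93) had the largest rises, and the nuclear receptor gene nhr-25 (-1.22) was the one that fell. Among the other regulators myrf-1 (1.55) was higher, and nhr-23 (0.26, adjusted p = 0.536 by edgeR), blmp-1 (-0.20) and grh-1 (-0.40) were not called. Of the 6 epidermal genes matched, elt-1 (-1.94), lin-26 (-0.74) and elt-3 (-0.47) were lower in larvae and none was higher, and 5 were lower with library totals alone. Their summed level was 186 to 643 TPM in larvae and 705 to 860 TPM in embryos, and its part in the collagen values was not tested.

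The genes most like each collagen were sought by the root mean square (RMS) difference of log2 CPM over the 8 libraries, after each gene was centred at its mean. Within the 10, dpy-5 and dpy-13 were nearest to each other (RMS 0.20), dpy-4 was nearest to dpy-13 (0.28) and rol-6 to dpy-4 (0.35). The genes named next are the nearest outside the 10. sqt-3 was followed most closely by apc-10 (RMS 0.065), a gene of the anaphase-promoting complex on the same chromosome, at 3.69, 1.64, 2.88 and 1.31 TPM in larvae, against 8.42, 8.07, 10.1 and 9.37 TPM in embryos, and then by ugt-52 (0.17). Whether apc-10 and sqt-3 share reads was not checked, so this likeness may not be one of expression. For dpy-17 the nearest were R11.4 (0.22) and C08F1.6 (0.23). dpy-14 had ttr-50 (0.26) and hch-1 (0.40), and hch-1 is known for the hatching protease it encodes. Outside the 10, collagens were nearest to dpy-4, dpy-5, dpy-13 and rol-6, with col-17 (0.27) and col-90 (0.30) for dpy-4, col-73 (0.42) and rol-8 (0.49) for dpy-5, col-73 (0.29) and col-90 (0.39) for dpy-13, and col-90 (0.35) and col-17 (0.36) for rol-6. sqt-1 was nearest to F16B4.4 (0.46) and to the matrix metalloprotease gene zmp-4 (0.50). Over 8 libraries in 2 stages, the stage difference enters every such likeness.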

How the data were processed

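Poly(A) RNA of 4 larvae and 4 embryo libraries had been made into stranded libraries and read from one end. The authors aligned the reads to WS220 with Tophat 2.1.1 and counted reads per gene with HTSeq 0.6.1, and the deposited counts are raw whole numbers. The strand setting of the counting is not given in the sources used here. Reads were not marked with molecular identifiers, so count limits cover counting error only. The 5 summary classes that name no gene entered neither library sizes nor tests, and reads in no gene made 3.26% to 6.06% and ambiguous reads 0.861% to 1.07%. The deposited TPM values had been corrected by the authors for length of gene and size of library, and 14 columns of that table were not used here. Cufflinks 2.2.0 is listed among the authors' tools, and whether it made the TPM values was not established here. Start positions in that table count from 0, and 1 was added. The deposited tables of the authors' own strain comparison hold mean counts, log2 fold changes and p-values and were not used.

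Counts were tested with edgeR 4.0.16 (glmQLFit and glmQLFTest, R 4.3.3) with TMM factors and filterByExpr, which left 13571 genes, with Benjamini-Hochberg adjustment called at 0.05, and the standard error was taken as the log2 fold change over the root of F. CPM for spread and likeness had a prior count of 2. TPM ratios had 0.1 added and were compared with exact permutation tests (scipy 1.17.1). The edgeR, DESeq2 and limma tests were checked on simulated counts, and the permutation test on fixed values with a known answer. Alternatives were library totals, DESeq2 1.42.0, no filter, glmTreat, a replicate block, limma 3.58.1 on log2(TPM + 1) and log2(TPM + 0.1), a threshold of 0.01 and leaving out each library. The labels do not say that replicates of a stage were separate cultures, although the methods call them biological, so p-values measure the spread between these libraries. The 10 genes, the lists and the tests were chosen with earlier results of these data known. All 10 were named. The plan for each other list was up to 2 called genes with the largest rise and 2 with the largest fall. It also took in the molting regulators and the 2 genes nearest in pattern to each collagen. Further genes of the muscle, germline, epidermal, adult, furrow and other body-shape lists were named beyond that plan, with their values known. Symbols of 19879 genes matched a RefSeq table, and the epidermal gene bus-8 was not matched.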

Additional observations from a re-analysis of the deposited data

Results flagged for a closer look

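Of 20 sets of 4 TPM values examined (10 genes in 2 stages), 2 held a library far from the other 3 of its stage, and chance alone gives about 1 in 20. bli-2 stood at 4.27 TPM in larvae replicate 1 and at 0.130 to 0.515 TPM in the other larvae libraries, from 68 counts in that library. dpy-13 stood at 5.36 TPM in embryos replicate 3 and at 3.16 to 3.46 TPM in the other embryo libraries, and its log2 fold change was called without that library too.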

How the results depend on the processing

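The 5 higher and 3 lower calls among the collagens held under library totals, DESeq2, the replicate block, both TPM scales and leaving out each library. Against a fold of 2, and at a threshold of 0.01, 7 were called, because sqt-3 was lost (adjusted p = 0.513 against a fold of 2), and without the filter 9 were called, with bli-2 added. Over all genes, 10058 calls became 5913 against a fold of 2 (3174 higher and 2739 lower in larvae, beside 5004 and 5054). On log2(TPM + 1), 2982 genes were higher and 7694 lower, and on log2(TPM + 0.1), 2983 were higher and 7666 lower. Scaling by library totals put 35.8% of calls higher in larvae, beside 49.8% with TMM. Leaving out each library gave 9726 to 10363 calls, and a median larval SD of the collagens of 0.58 to 0.80. A replicate block gave 9768 calls (4806 higher and 4962 lower) and kept all 8 collagens. Libraries with the same number did not deviate together (correlations of -0.19 to 0.07, beside -0.14 to 0.24 for unlike numbers). With so few libraries, and stages that need not deviate alike, this cannot settle whether the number pairs them. With a library left out the smallest p of the pair ratios is 0.0571, and with pairing 0.125, so neither could pass. Low counts limit dpy-14 and dpy-17 in larvae, rol-6 in embryos, and bli-1 and bli-2 in both stages.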
